A study of Mus musculus with 2 samples.

Results

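The brush border disaccharidases are the enzymes on the luminal face of the absorptive enterocyte that split dietary disaccharides and short starch fragments into monosaccharides. The genes examined were Sis, Lct, Mgam and Treh, chosen by name, and all 4 were found among the 43346 genes of the tables. The data came from poly(A)-selected RNA of the small intestine of an adult C57BL/6J mouse, a female of 10 weeks, without treatment or genetic change in the labels. There was 1 biological replicate, sequenced as 2 technical libraries, of which the second was made later, per the labels. The labels do not say which segment of the small intestine was taken, or whether both libraries came from the same extraction. Every difference below is therefore a difference between 2 libraries of 1 animal, with no spread between animals behind it.

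Sucrase-isomaltase, encoded by Sis, splits sucrose and the branch-point bonds of starch fragments. Maltase-glucoamylase, encoded by Mgam, releases glucose from the ends of linear starch fragments. Both are anchored in the membrane near their amino terminus, belong to the same glycoside hydrolase family and carry a pair of homologous catalytic domains. Lactase-phlorizin hydrolase, encoded by Lct, splits milk sugar and declines after weaning in most mammals. Trehalase, encoded by Treh, splits the trehalose of fungi and insects and is held in the membrane by a lipid anchor. The glucose, galactose and fructose that these enzymes release are taken up by transporters in the same membrane.

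The relatedness of Sis and Mgam is visible in their coding sequence and bears on assigning short reads to them. The stretches below are taken 5′ to 3′ from the GENCODE M21 transcripts (GRCm38/mm10). They hold the catalytic motif of Sis and Mgam, the motif round the catalytic glutamate of Lct, and a signature motif of Treh, with the motif codons in capitals. The codons searched were those for tryptophan, any residue, aspartate, methionine, asparagine and glutamate in Sis and Mgam. In Lct they were those for isoleucine or valine followed by threonine, glutamate, asparagine and glycine. In Treh they were those for glutamine, tryptophan, aspartate, any residue and proline.
Sis site 1: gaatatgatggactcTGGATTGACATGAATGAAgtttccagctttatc
Mgam site 1: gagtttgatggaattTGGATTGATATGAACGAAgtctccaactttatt
Sis site 2: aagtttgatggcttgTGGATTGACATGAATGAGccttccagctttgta
Mgam site 2: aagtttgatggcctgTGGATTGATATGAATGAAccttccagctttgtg
Lct site 1: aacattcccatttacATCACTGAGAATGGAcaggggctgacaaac
Lct site 2: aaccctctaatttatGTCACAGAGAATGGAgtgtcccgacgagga
Treh site 1: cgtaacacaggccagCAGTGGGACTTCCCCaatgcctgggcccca

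The Sis stretches lie at chr3:72946634-72947441 and chr3:72913251-72914595 on the − strand, and those of Mgam at chr6:40662689-40663532 and chr6:40755009-40755466 on the + strand, each interrupted by an intron. Those of Lct lie at chr1:128299903-128299947 and chr1:128287558-128287602 on the − strand, and that of Treh at chr9:44684980-44685024 on the + strand. The Sis motif began at codons 493 and 1383 of an open reading frame of 1818 codons in Sis-202, and the Mgam motif at codons 501 and 1392 of 1827 in Mgam-201. Both transcripts have 48 exons, and in both the sites lie across the junction of exons 13 and 14 and that of exons 35 and 36. The second sites of Sis and Mgam matched at 44 of 48 bases, and their first sites at 39 of 48. Within Sis, site 1 and site 2 matched at 37 of 48 bases, as they did within Mgam, so each site was closer to its counterpart in the other gene than to the other site of its own gene. The Lct sites lie in exons 8 and 15 of 17, at codons 1275 and 1751 of 1931, and matched at 26 of 45 bases. The Treh site lies in exon 12 of 15, at codon 458 of 576. The stretch of Treh had a GC content of 64.4%, against 37.5% and 41.7% for the Sis stretches.

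Despite that likeness, Sis-202 and Mgam-201 shared no identical run longer than 17 bases. The longest run that Mgam-201 shared was with Mgam2-ps-201, the transcript of the pseudogene beside it, at 74 bases in exon 38 (chr6:40757472-40757545, + strand).
Mgam and Mgam2-ps: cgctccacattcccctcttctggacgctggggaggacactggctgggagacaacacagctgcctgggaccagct
Mgam2-ps itself was listed at 4.62 TPM in the first library and 12.4 TPM in the second, from 486 and 836 expected counts, far under the counts of Mgam. Reads of this stretch could be given to either gene by the counting.

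Sis was the most abundant of the 4 genes in both libraries, Mgam stood at the same deposited level in both, and Lct and Treh were minor in the first library and stood near Mgam in the second. Levels are given as TPM, the abundance of transcripts relative to all transcripts of a library, which is per transcript length and so can be compared between genes. The bounds beside them are the deposited credibility bounds around the posterior mean TPM. They cover the assignment and sampling of reads in that library alone.

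Sis (ENSMUSG00000027790, chr3:72888557-72967863, − strand) was at 2598 TPM in the first library and 1226 TPM in the second. The posterior means were 2516 TPM (2490 to 2539) and 1173 TPM (1158 to 1188). It ranked 8th among 21461 protein-coding genes in the first library and 74th in the second.

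Mgam (ENSMUSG00000068587, chr6:40628831-40769123, + strand) was at 418.76 TPM in the first library and 418.83 TPM in the second. The posterior means were 406 TPM (404 to 409) and 400.04 TPM (396 to 404). Equal TPM did not give equal standing, since Mgam ranked 78th among protein-coding genes in the first library and 313th in the second.

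Lct (ENSMUSG00000026354, chr1:128284756-128328318, − strand) was at 30.2 TPM in the first library and 517 TPM in the second. The posterior means were 29.5 TPM (28.6 to 30.3) and 494 TPM (487 to 502). Its rank went from 1564 to 254.

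Treh (ENSMUSG00000032098, chr9:44673233-44686305, + strand) was at 11.9 TPM in the first library and 387 TPM in the second. The posterior means were 11.8 TPM (10.8 to 12.7) and 370.03 TPM (364 to 376). Its rank went from 3241 to 340.

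**Figure D1:**
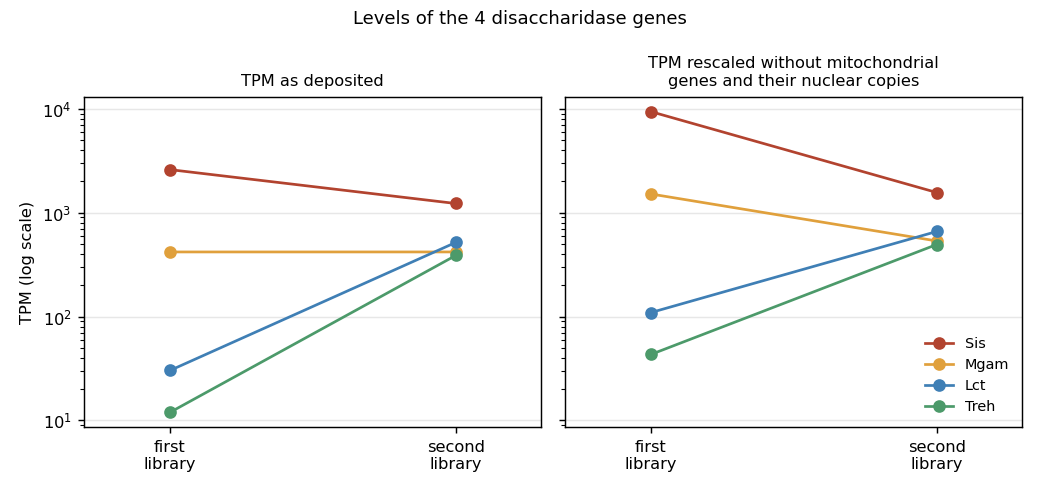
TPM of Sis, Mgam, Lct and Treh in the 2 technical libraries on a logarithmic axis, as deposited (left) and after rescaling without mitochondrial genes and their nuclear copies (right). Each point is 1 gene in 1 library, and the lines only join the points of a gene. Sis is the highest point in all 4 columns, while Lct and Treh lie far below Mgam in the first library and near it in the second.

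The order of levels was Sis, Mgam, Lct, Treh in the first library and Sis, Lct, Mgam, Treh in the second. Within each library the bounds of neighbouring genes did not overlap. In both libraries Sis was the highest and Treh the lowest, while Lct and Mgam changed places. The level of Mgam fell inside the range spanned by Lct, so the order of Lct and Mgam is not fixed by these libraries. The ranges of Lct and Treh over the libraries overlapped over most of their width, though Treh was below Lct in each. The ratio of Sis to Lct was 85.9 in the first library and 2.37 in the second, and that of Sis to Treh was 217 and 3.17. The ratio of Sis to Mgam moved less, from 6.20 to 2.93, and that of Lct to Treh from 2.53 to 1.33.

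The 4 genes together made up 3059 TPM in the first library and 2549 TPM in the second, and 1.27% and 0.845% of all expected counts. Sis held 84.9% of their summed TPM in the first library and 48.1% in the second. Mgam held 13.7% and 16.4%, the steadiest of the shares. Lct went from 0.989% to 20.3% and Treh from 0.391% to 15.2%.

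**Figure D2:**
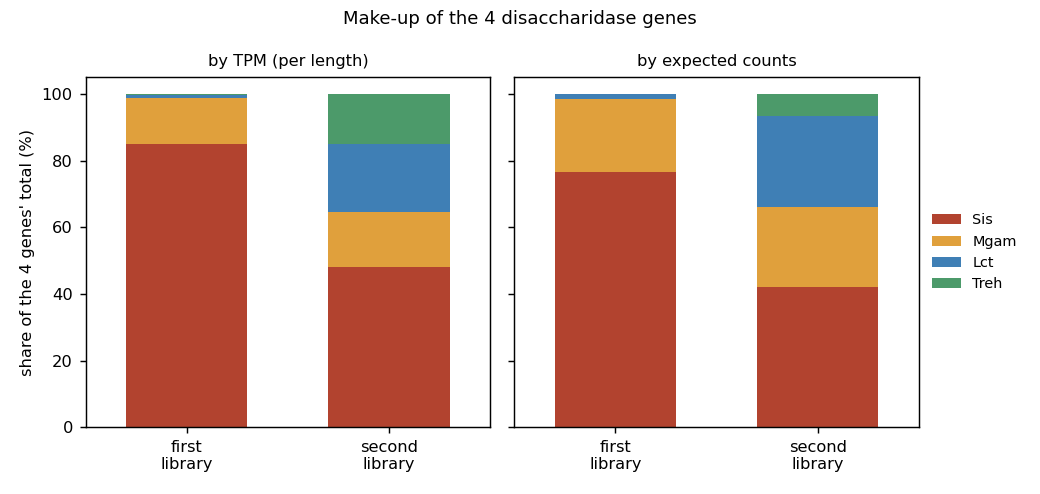
Share of each gene in the total of the 4 genes (%, from 0), by TPM (left) and by expected counts (right), with 1 bar per technical library. Sis fills most of the first library's bar, and Lct and Treh become visible bands in the second.

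The libraries themselves were not alike, and this bears on every ratio between them. They held 28277875 and 24509862 expected counts. Mitochondrial genes and their nuclear copies took 72.3% of TPM in the first library and 21.6% in the second, which lowers the TPM of all other genes in the first. With those genes left out and TPM rescaled, Sis was at 9389 and 1564 TPM, Mgam at 1513 and 534, Lct at 109 and 659, and Treh at 43.2 and 494. On that scale Mgam was lower in the second library, where the deposited TPM were equal.

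Differences between the libraries were tested on the rounded expected counts, scaled by the trimmed mean of M values (TMM), with an exact binomial test for each of 15188 genes with 20 or more counts. A gene was called at a Benjamini-Hochberg adjusted p under 0.05 and a change of 2-fold or more. So many genes differed that a call is not unusual. Of all genes tested, 40.2% were called higher in the second library and 27.5% higher in the first. Among the disaccharidases, Lct and Treh were called higher in the second library, and Sis and Mgam higher in the first.

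Treh had the largest log2 ratio before any subtraction of a GC trend, with 654 expected counts in the first library and 13478 in the second. Its log2 ratio of second over first was 3.73 (counting SE 0.058), a 13.3-fold difference. Lct had 5337 and 56865 counts and a log2 ratio of 2.78 (SE 0.021), or 6.87-fold. Sis had 273941 and 87042 counts and a log2 ratio of -2.29 (SE 0.0056), which is 4.88-fold higher in the first library. Mgam had 78049 and 49767 counts and a log2 ratio of -1.28 (SE 0.0083), whereas its ratio of TPM + 1 was 0.0002 and its ratio on total counts -0.44, so neither its direction nor its call holds on all scales. The adjusted p of the exact binomial test was 0 at double precision for all 4 genes, as counts of this size make the counting error small. The median over all genes tested was 0.26 with this scaling and 1.10 with scaling to total counts.

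Differences between members do not depend on the scaling of the libraries, but they do depend on the GC trend described next. The log2 ratio of Treh exceeded that of Sis by 6.02 (counting SE 0.058), and that of Lct exceeded that of Sis by 5.07 (SE 0.021). Treh and Lct differed by 0.95 (SE 0.061), and Mgam exceeded Sis by 1.00 (SE 0.010). After subtraction of that trend, fitted on the mean GC of each gene's transcripts, the first 2 differences were 1.77 and 2.13. That of Treh over Lct turned to -0.36 and that of Mgam over Sis to -0.59. With the GC of the longest transcript Treh stayed above Lct, at 1.60 against 1.03. Mgam at -0.76 was still below Sis at -0.47 there.

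The ratios followed the base composition of the transcripts. The mean GC content of the annotated transcripts was 38.3% for Sis, 46.9% for Mgam, 50.9% for Lct and 53.7% for Treh, and the 4 log2 ratios rise in the same order. Over all genes tested the median was 50.4%, and the log2 ratio rose with GC. When this trend was fitted over all genes and subtracted, 17.5% of 15145 genes were called higher in the second library and 17.6% higher in the first. The trend at the GC of Sis was -2.28, and its ratio after subtraction was -0.005 (adjusted p = 0.441, exact binomial test). Mgam was at -0.60 after subtraction and was not called, being under 2-fold. Lct at 2.13 and Treh at 1.76 kept their calls. With the GC of the longest transcript in place of the mean, Sis was at -0.47, Mgam at -0.76, Lct at 1.03 and Treh at 1.60. The part of GC content and of mitochondrial load in these differences was not tested, and with 1 library on each side it cannot be told apart from other differences between the libraries.

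**Figure D3:**
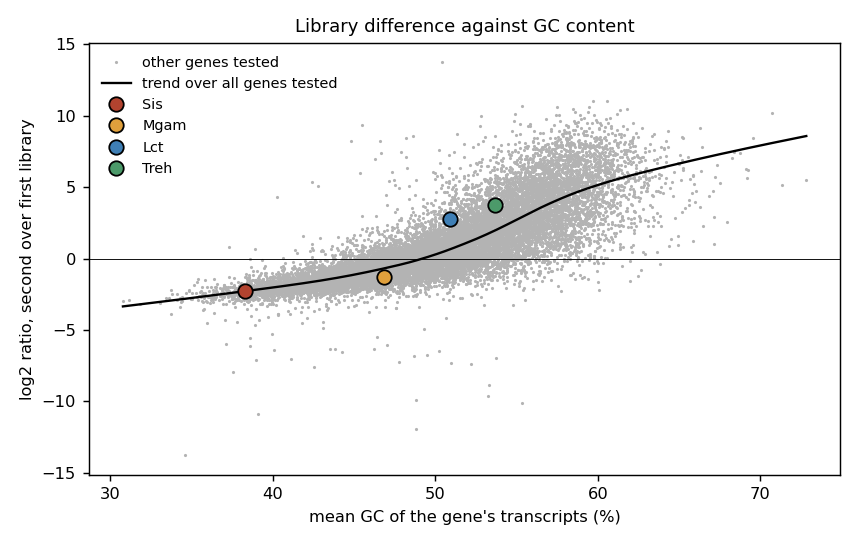
Log2 ratio of second over first library against the mean GC content of each gene's transcripts (%) for the genes tested, with the fitted trend as a black line and the disaccharidase genes as large points. Sis at -2.29 lies on the trend, Mgam at -1.28 slightly below it, and Lct at 2.78 and Treh at 3.73 above it.

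At the transcript level, the deposited tables split Sis over 4 transcripts. Sis-201 (5887 bases) and Sis-202 (5953 bases) encode protein, and Sis-201 lacks 63 bases at the 5′ end and 3 at the 3′ end of Sis-202 and is otherwise identical to it. In the first library Sis-201 was given 31.3% and Sis-202 26.6% of the gene's TPM, and in the second 9.22% and 52.2%. The posterior SD of the Sis-201 count was 31332 around a posterior mean of 117701 in the first library and 5404 around 15737 in the second. The split between these 2 transcripts rests on the few bases in which they differ. Their sum was 1505 TPM in the first library and 753 TPM in the second, still the highest of the 4 genes in both.

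Sis-203 is a short transcript of 772 bases (chr3:72965092-72967860, − strand), annotated as a retained intron. It holds 285 bases of exons 1 to 3 and runs on into 487 of the 4448 bases of intron 3. The edge is shown because reads across it or beyond it tell this transcript from the coding ones. The sequence is from GENCODE M21, chr3:72965519-72965608 on the − strand of GRCm38/mm10, with the bases of the intron in capitals.
Sis-203 edge: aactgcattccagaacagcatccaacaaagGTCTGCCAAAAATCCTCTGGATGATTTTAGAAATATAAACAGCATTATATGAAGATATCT
Sis-203 was given 42.0% of the gene's TPM in the first library and 38.6% in the second, the largest share of any Sis transcript in the first. By expected counts it held only 6.87% and 6.08%, from 18832 and 5293 counts, because TPM divides by length and this transcript is short. Its counts were well determined among the annotated transcripts, with a posterior SD of 142 and 37.6. The deposited level of Sis as a gene therefore holds 1093 TPM in the first library and 473 TPM in the second that were given to this retained intron transcript. Whether unspliced Sis RNA holds part of these counts was not tested. With protein-coding transcripts only, Sis held 76.6% and 37.2% of the summed TPM of the 4 genes.

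Treh was split over 4 transcripts. Treh-201, the full-length coding form, held 93.0% of the gene's TPM in the first library and 90.2% in the second. Treh-202, also coding, held 7.04% and 0.40%, with bounds on its posterior mean of 0 to 1.40 TPM in the first library and 0.483 to 3.22 TPM in the second, which overlap. Treh-203 was listed at 0 in the first library and at 32.6 TPM in the second, 8.42% of the gene. Its posterior mean in the first library was 0.64 TPM, with bounds of 0 to 1.57, and these bounds hold a share like that of the second library. Treh-203 is annotated as a target of nonsense-mediated decay and lacks exon 5 of Treh-201, 101 bases at chr9:44682632-44682732. That length is not a multiple of the codon length. The exon is printed in capitals with 20 bases of exons 4 and 6 on either side, since their direct joining marks Treh-203.
Treh exon 5: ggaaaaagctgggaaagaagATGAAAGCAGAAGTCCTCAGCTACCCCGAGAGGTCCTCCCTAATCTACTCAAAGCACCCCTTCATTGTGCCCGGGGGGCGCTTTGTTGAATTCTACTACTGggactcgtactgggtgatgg
Treh-204, a fragment annotated the same way, was listed at 0 in the first library and at 3.71 TPM in the second.

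Lct was almost all 1 coding transcript. Lct-201 held 99.6% of the gene's TPM in the first library and 97.2% in the second. The rest was Lct-202, a retained intron of 620 bases, at 0.12 and 14.2 TPM. Mgam had a single transcript in the tables, Mgam-201 of 6488 bases, so no split of its counts can be seen.

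**Figure D4:**
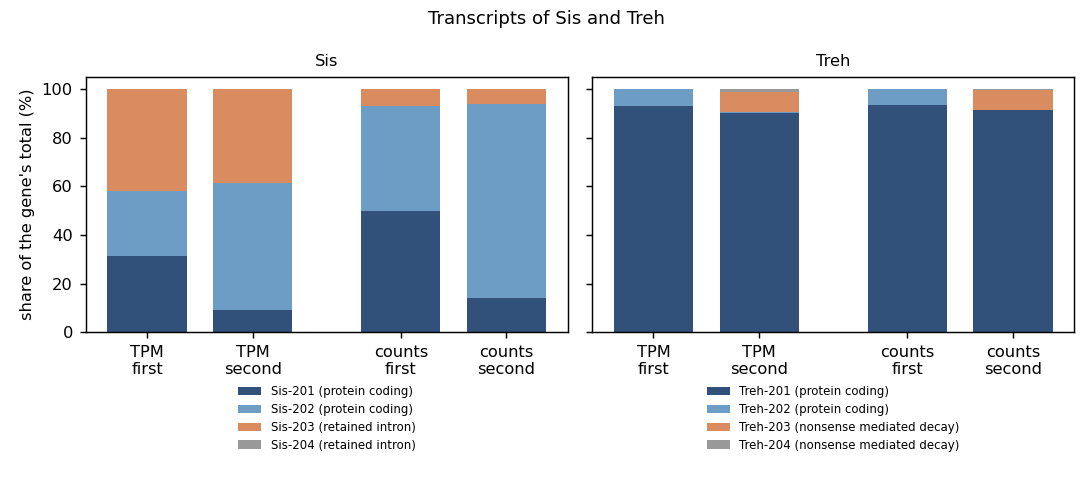
Share of each annotated transcript in the total of Sis (left) and Treh (right), in percent from 0, by TPM and by expected counts in each technical library. Sis-203 fills 42.0% and 38.6% of the TPM bars of Sis but 6.87% and 6.08% of its count bars, and Treh-203 is seen only in the second library's bars.

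Other glycosidases of the same families were far less abundant. The list of relatives summed to 38.8 TPM in the first library and 165 TPM in the second, over 10 genes found of 11 listed. The second library held the higher value of all 5 genes called among 9 tested, beside 40.2% of all genes called higher there. The median log2 ratio was 1.09, beside 0.26 for all genes tested. After subtraction of the GC trend 3 were called, all higher in the second library, beside 17.5% of all genes tested. The median was then 0.43. Ganab, the catalytic subunit of the glucosidase that trims glycans in the endoplasmic reticulum, was at 16.6 and 86.1 TPM. Ganc, a neutral alpha-glucosidase, had 794 and 1021 expected counts and was not called (log2 ratio -0.27).

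The genes for uptake and use of the released sugars were as abundant as the enzymes. They summed to 3418 TPM in the first library and 6111 TPM in the second. Among 9 tested, 6 were called, all of them higher in the second library, where 40.2% of all genes tested were called. The median log2 ratio was 1.05. After subtraction of the GC trend 4 were called higher in the second, beside 17.5% of all genes tested. Slc5a1, the sodium-coupled glucose and galactose transporter, was at 344 and 652 TPM. Slc2a2, the basolateral hexose transporter, was at 212 and 242 TPM. Neither transporter was called, with log2 ratios of -0.36 and -0.63. Khk, the kinase that starts fructose breakdown, was at 0.42 TPM in the first library, from 15 counts, and 500.2 TPM in the second, from 10885 counts, with a log2 ratio of 8.82.

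The amylases, which make the starch fragments that Sis and Mgam cut, summed to 5198 and 6780 TPM. Of 6 tested, 3 were called higher in the first library, beside 27.5% of all genes tested, with a median log2 ratio of -1.06. After subtraction of the GC trend the direction turned, with 3 called higher in the second library, beside 17.5% of all genes tested. The median was then 1.03. Amy2a5, Amy2a3, Amy2a4 and Amy2a2 are near-identical copies whose counts cannot be kept apart. The first library gave them 1041 to 1419 TPM each, and the second 1499 to 1821 TPM. The amylases of this group are products of pancreatic acinar cells. The 8 acinar markers summed to 730 TPM in the first library and 11408 TPM in the second, with the highest mean for Cela2a at 137 and 3441 TPM. Pnlip was the highest of them in the first library (433 and 1045 TPM) and was not called (log2 ratio -0.0007). The part of acinar cells in the amylase level was not tested.

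Other hydrolases of the brush border also had calls in both directions. Calls went to the second library for 8 of 18 genes tested and to the first for 5, close to the 40.2% and 27.5% of all genes tested, and the median log2 ratio was 0.084. After subtraction of the GC trend these counts were 5 and 1, beside 17.5% and 17.6% of all genes tested. Anpep, aminopeptidase N, was at 195 and 1555 TPM, and its log2 ratio of 1.72 became -1.94 after subtraction. The alkaline phosphatases Akp3 and Alpi were at 48.8 and 1649 TPM and at 44.0 and 1524 TPM. In the first library Sis was higher per length than each of these named hydrolases, and in the second it was below each of them.

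Transcription factors known to act on intestinal enzyme genes summed to 436 TPM in the first library and 1397 TPM in the second. Calls went to the second library for 11 of 18 genes tested and to the first for 2, beside 40.2% and 27.5% of all genes. The median log2 ratio was 1.62. After subtraction of the GC trend the balance turned to 3 and 9, beside 17.5% and 17.6% of all genes, with a median of -0.93. Hnf4g, a nuclear receptor of the differentiated enterocyte, was at 254 and 234 TPM, and its paralogue Hnf4a at 27.3 and 223 TPM. Elf3, an epithelial ETS factor, was at 3.09 and 179 TPM, and Mlxipl, the carbohydrate-response factor, at 3.78 and 170 TPM. A pair of known regulators of Sis and Lct, Cdx2 and Gata4, were named after their values were seen. Cdx2 was at 8.52 and 68.6 TPM, and Gata4 at 17.2 and 91.8 TPM. Both were called higher in the second library, with log2 ratios of 1.73 and 2.95. After subtraction of the GC trend Cdx2 was at -2.36 and called higher in the first library, and Gata4 was at 0.018 and not called.

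**Figure D5:**
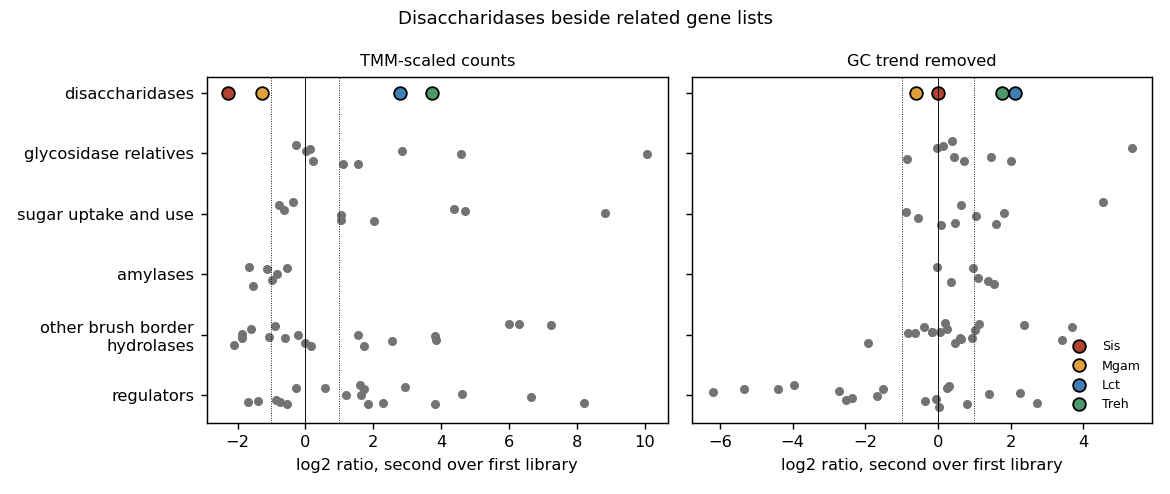
Log2 ratio of second over first library for each tested gene of the disaccharidases and of 5 related lists, with TMM-scaled counts (left) and after subtraction of the GC trend (right), with dotted lines at 2-fold either way. Grey points are single genes of the related lists. The disaccharidases span -2.29 to 3.73 on the left and -0.60 to 2.13 on the right, and the regulators shift from mostly right of 0 to mostly left of it.

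Enterocytes, the cells that make these enzymes, were represented in both libraries. All 8 enterocyte markers were at 1 TPM or more in both, and they summed to 4947 TPM in the first library and 44368 TPM in the second, with the highest mean for Apoa4 at 22.5 and 12533 TPM. In the first library Apoa4 was the lowest of the 8, and Fabp2 the highest (3191 and 5248 TPM, not called). Of the 8, 6 were called, all higher in the second library, where 40.2% of all genes tested were called. After subtraction of the GC trend 5 were called higher there, beside 17.5% of all genes tested, with Fabp2 among them at 1.09. Among the disaccharidases Lct and Treh were called higher in the second library, and Sis and Mgam were not. In bulk tissue, fewer cells of a type and less RNA per cell cannot be told apart.

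Markers of other cells also differed. The 7 goblet cell markers summed to 491 and 12283 TPM, with the highest mean for Zg16 (98.8 and 5584 TPM). Clca1 was the highest of them in the first library (144.8 and 530.5 TPM) and was not called. After subtraction of the GC trend it was at 1.39 and called higher in the second library. The 6 Paneth cell markers summed to 3323 and 15395 TPM, with the highest mean for Defa24 (475 and 11074 TPM). Defa17 was the highest Paneth marker in the first library and was called higher there (1889 and 783 TPM, log2 ratio -2.48). It kept this call after subtraction of the GC trend, at -2.81. The 7 enteroendocrine markers summed to 19.7 and 512 TPM, with the highest mean for Gip (0.15 and 162 TPM, from 2 and 1448 counts). Chgb was the highest of them in the first library (12.55 and 78.32 TPM), and Ghrl had 0 counts there. Neurod1 was called higher in the first library (log2 ratio -1.99), but after subtraction of the GC trend it was at -0.57 and not called. The median of the enteroendocrine markers was 4.74 and became 0.21 with that subtraction. The 5 crypt stem cell markers summed to 168 and 256 TPM, led by Olfm4 (156 and 204 TPM). On TMM-scaled counts the log2 ratio of Olfm4 was -0.89 and that of Lgr5 was -1.56. Those of Smoc2, Ascl2 and Axin2 were 1.39, 1.61 and 2.13. The median of these crypt markers was 1.39, and turned to -1.03 after subtraction of the GC trend. The 6 smooth muscle markers summed to 28.3 and 635 TPM, led by Acta2 (10.1 and 227 TPM). The 6 lymphocyte and plasma cell markers summed to 475 and 3471 TPM, with the highest mean for Igha (5.59 and 2951 TPM). Jchain held most of their sum in the first library (443 and 477 TPM, log2 ratio -1.16). After subtraction of the GC trend Jchain was at 1.05 and called higher in the second library. The part of these cells in the disaccharidase differences was not tested. Treh is also made in the kidney, and the 6 kidney markers summed to 2.75 TPM in the first library and 0.76 TPM in the second, led by Kap (2.66 and 0.49 TPM), with Slc22a6 at 0 in both. The 5 liver markers summed to 1.46 and 6.64 TPM, with the highest mean for Ttr (0.53 and 4.64 TPM) and with Ahsg at 0 in both.

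The protein-coding genes closest to each disaccharidase over both libraries were found by the distance in log2(TPM + 1), which over 2 libraries is a description of level only. For Sis they were Prdx1 (1877 and 1235 TPM), Apob (1632 and 1274 TPM) and Defa17 (1889 and 783 TPM), at distances of 0.47 to 0.79, so no gene came very near it. For Mgam they were Ddx5 (458 and 411 TPM), Jchain (443 and 477 TPM) and Calm2 (488 and 452 TPM). For Lct they were Rpl15 (31.5 and 494 TPM), Dhrs1 (29.9 and 565 TPM) and Rpl12 (27.9 and 491 TPM). For Treh they were Tubb4b (12.7 and 388 TPM), Lgals9 (13.1 and 411 TPM) and Uqcrc1 (11.6 and 443 TPM).

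The chromosomal neighbours of the disaccharidases did not share their levels. The nearest annotated protein-coding genes round Sis were Otol1, at 0 in both libraries, and Slitrk3, at 0.10 and 0.06 TPM. Those round Mgam, Tas2r138 and Moxd2, were at 0 in both. Lct lies 5377 bases from Ubxn4 (38.5 and 26.8 TPM) and 3271 bases from Mcm6 (9.10 and 25.2 TPM), and neither was called. Mcm6 carries, in humans, the intronic enhancer of the lactase gene. Treh lies between Ddx6 (34.5 and 29.4 TPM) and Arcn1 (130.6 and 122 TPM), both of which were called higher in the first library, opposite to Treh. These calls are without subtraction of the GC trend. The mean GC of the transcripts was 43.4% for Ddx6 and 42.6% for Arcn1, against 53.7% for Treh. The part of GC content in this contrast was not tested.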

How the data were processed

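Gene and transcript tables of the small intestine libraries were used as deposited. Per the file headers they hold expected counts, TPM, posterior means with credibility bounds whose level is not stated, posterior standard deviations of counts, and the percent of each gene's TPM held by each transcript. Per the deposited notes, reads were placed on mm10 with GENCODE M4; the sources used here name no aligner. GENCODE M21 supplied symbols for 42462 of 43346 genes, positions, GC content and sequences. A BLAST 2.17.0 search against mitochondrial genes marked 11 nuclear copies.

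Expected counts, as deposited, were rounded and scaled with TMM in edgeR 4.0.16. With 1 library on each side a model with replicate spread could not be fitted, so an exact binomial test (scipy 1.17.1) was run on genes with 20 or more counts and adjusted over all of them. It compares 2 libraries rather than conditions, and only counting error enters it. The log2 ratio used 0.5 prior counts. The GC trend was a lowess fit (span 0.3, statsmodels 0.14.6). In simulated counts for this comparison (14988 unchanged genes), 96 of 100 genes changed by 2 on the log2 scale were called, 100 of 100 changed by 3, and 2 unchanged genes. The simulated libraries held counting error and the set changes only, without the GC trend or mitochondrial difference of the real ones. These counts therefore give no error rate for the real libraries.

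Alternatives covered scaling (total counts, DESeq2 1.42.0 size factors, TMM over nuclear genes), the count filter, prior counts, fold threshold, TPM + 1, posterior means and leaving out each library. The members and lists were chosen with earlier results of these data known. Named genes were up to 4 of highest mean TPM per list, the most abundant gene and any gene at 0 counts per marker list, the 3 genes nearest in level, and chromosomal neighbours. Among the markers, Ascl2, Axin2, Chgb, Clca1, Defa17, Fabp2, Jchain, Lgr5, Neurod1, Pnlip and Smoc2 were named after their values were seen, as were Cdx2 and Gata4. Some genes that this rule names are not reported here, though they count in their lists. FPKM values, as deposited, were not analysed.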

Additional observations from a re-analysis of the deposited data

How the results depend on the processing

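Over all genes, the count higher in the second library was 2657 after subtraction of the GC trend, against 6107. The count higher in the first was 4172, and became 2672 after that subtraction, 1524 with total counts and 1166 at 4-fold. The log2 ratio of Sis was -0.005 after subtraction of the GC trend and -0.47 with the GC of the longest transcript. That of Mgam was -0.44 with total counts, -0.60 and -0.76 after the same subtractions, and 0.0002 as a ratio of TPM + 1, and the cause was not tested. Lct and Treh kept their direction under all 10 alternatives run for each, and their call under the 8 that give a test. The mean TPM of Sis over both libraries was 1912, and became 3249 over nuclear genes and 5477 without mitochondrial genes and their copies. For Mgam the mean of 419 became 403 with posterior means, 648 over nuclear genes and 1024 without mitochondrial genes and copies. The mean share of Mgam, 15.1%, became 22.9% by expected counts and 20.99% with coding transcripts only. By expected counts the mean share of Sis-202 in Sis was 61.5% and that of Sis-203 was 6.48%.

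Leaving out either library gives the value of the other. The ranges were 1226 to 2598 TPM for Sis, 418.76 to 418.83 TPM for Mgam, 30.2 to 517 TPM for Lct and 11.9 to 387 TPM for Treh. Rescaling without mitochondrial copies, coding transcripts only and the GC of the longest transcript were chosen after seeing the data. No paired analysis was possible because there is only 1 group. The depth allows firm counts for all 4 genes, the smallest being 654 for Treh in the first library. It does not fix the split of Sis-201 and Sis-202 or the absence of Treh-203 from the first library.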
